A study of Mus musculus with 18 samples.

Results

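Genes that mark colonic crypt stem cells or respond to Wnt signaling were examined in RNA-Seq counts of crypt epithelial cells from 18 mice. The set held 10 genes, which were picked by symbol from the 24047 genes of the count table. No measured value entered that rule, but the set was proposed with earlier results of these data known. They were the receptors Lgr5, Tnfrsf19 and Ephb2, the transcription factors Ascl2 and Sox9, the Wnt inhibitors Axin2, Rnf43 and Znrf3, and the secreted proteins Olfm4 and Smoc2. All 10 were in the table, although Olfm4 was at or under 5 counts in every WT library.

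The mice were C57BL/6 and either WT or Ern2-/-, where Ern2 encodes the endoplasmic reticulum stress sensor ERN2 (IRE1β) of mucosal epithelium. Each genotype was studied in 3 microbial states, with 3 libraries in each of the 6 groups. CONV mice were raised with a conventional, specific pathogen-free microbiota. GF mice were germ free. COLONIZED-GF mice had been germ free, were gavaged with a cecal homogenate of WT mice and were examined 14 days later. All libraries came from intact crypts released from colon with EDTA and held back by a strainer, and the labels gave neither age nor sex. The question here was how far crypt base genes differed between genotypes and microbial states.

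Several features of the libraries bear on every comparison. Totals ran from 5865619 to 23154481 counts, and the 3 shallowest libraries were CONV-Ern2-/- replicates 2 and 3 and CONV-WT replicate 3. The targeted gene did not separate the labels. The 9 libraries labelled Ern2-/- ran from 386 to 3336 normalized counts of Ern2 and the WT libraries from 1909 to 3100.3, and CONV was the only state in which the ranges did not overlap. A gene count also reads transcripts that lack a deleted exon, and which part of Ern2 was deleted was not checked here. Genotypes below are therefore those of the labels. Y-linked transcripts were near 0 in all 3 GF-WT libraries and present in all 3 CONV-Ern2-/- libraries, and the other groups were mixed. A fit with this pattern as a covariate is named where it changed a call. In all, 2 libraries stood apart within their groups. GF-Ern2-/- replicate 2 was the lowest of its group in 9 of the 9 genes other than Olfm4, and CONV-WT replicate 3 was the lowest in 8 of 9. Calls that changed without either are given both ways.

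In the crypt, Wnt proteins from neighboring cells bind Frizzled and LRP receptors, β-catenin then escapes degradation, and it joins TCF/LEF factors to switch on target genes. R-spondins act through LGR receptors to remove RNF43 and ZNRF3, ubiquitin ligases that clear Frizzled from the cell surface. LGR5 marks the dividing stem cells at the crypt base, ASCL2 maintains them, and AXIN2, RNF43 and ZNRF3 are target genes that feed back to dampen the signal. In RNA from whole crypts, fewer stem cells and less RNA per stem cell cannot be told apart.

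Levels of the 10 genes spanned a wide range. Normalized counts were divided by the length of each gene's merged exons in GENCODE vM21 (mm10), so that genes could be compared. Averaged over the 18 libraries, Sox9 had the highest level, at 434 normalized counts per kilobase, followed by Ephb2 at 154, Axin2 at 150, Rnf43 at 103 and Smoc2 at 102. Ascl2 stood at 72.9 and Lgr5 at 23.7. Tnfrsf19 was the lowest of the genes seen in every library, at 5.74, and rested on 3 to 94 counts per library. Olfm4 averaged 15.4, most of it from 1 library.

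**Figure D1:**
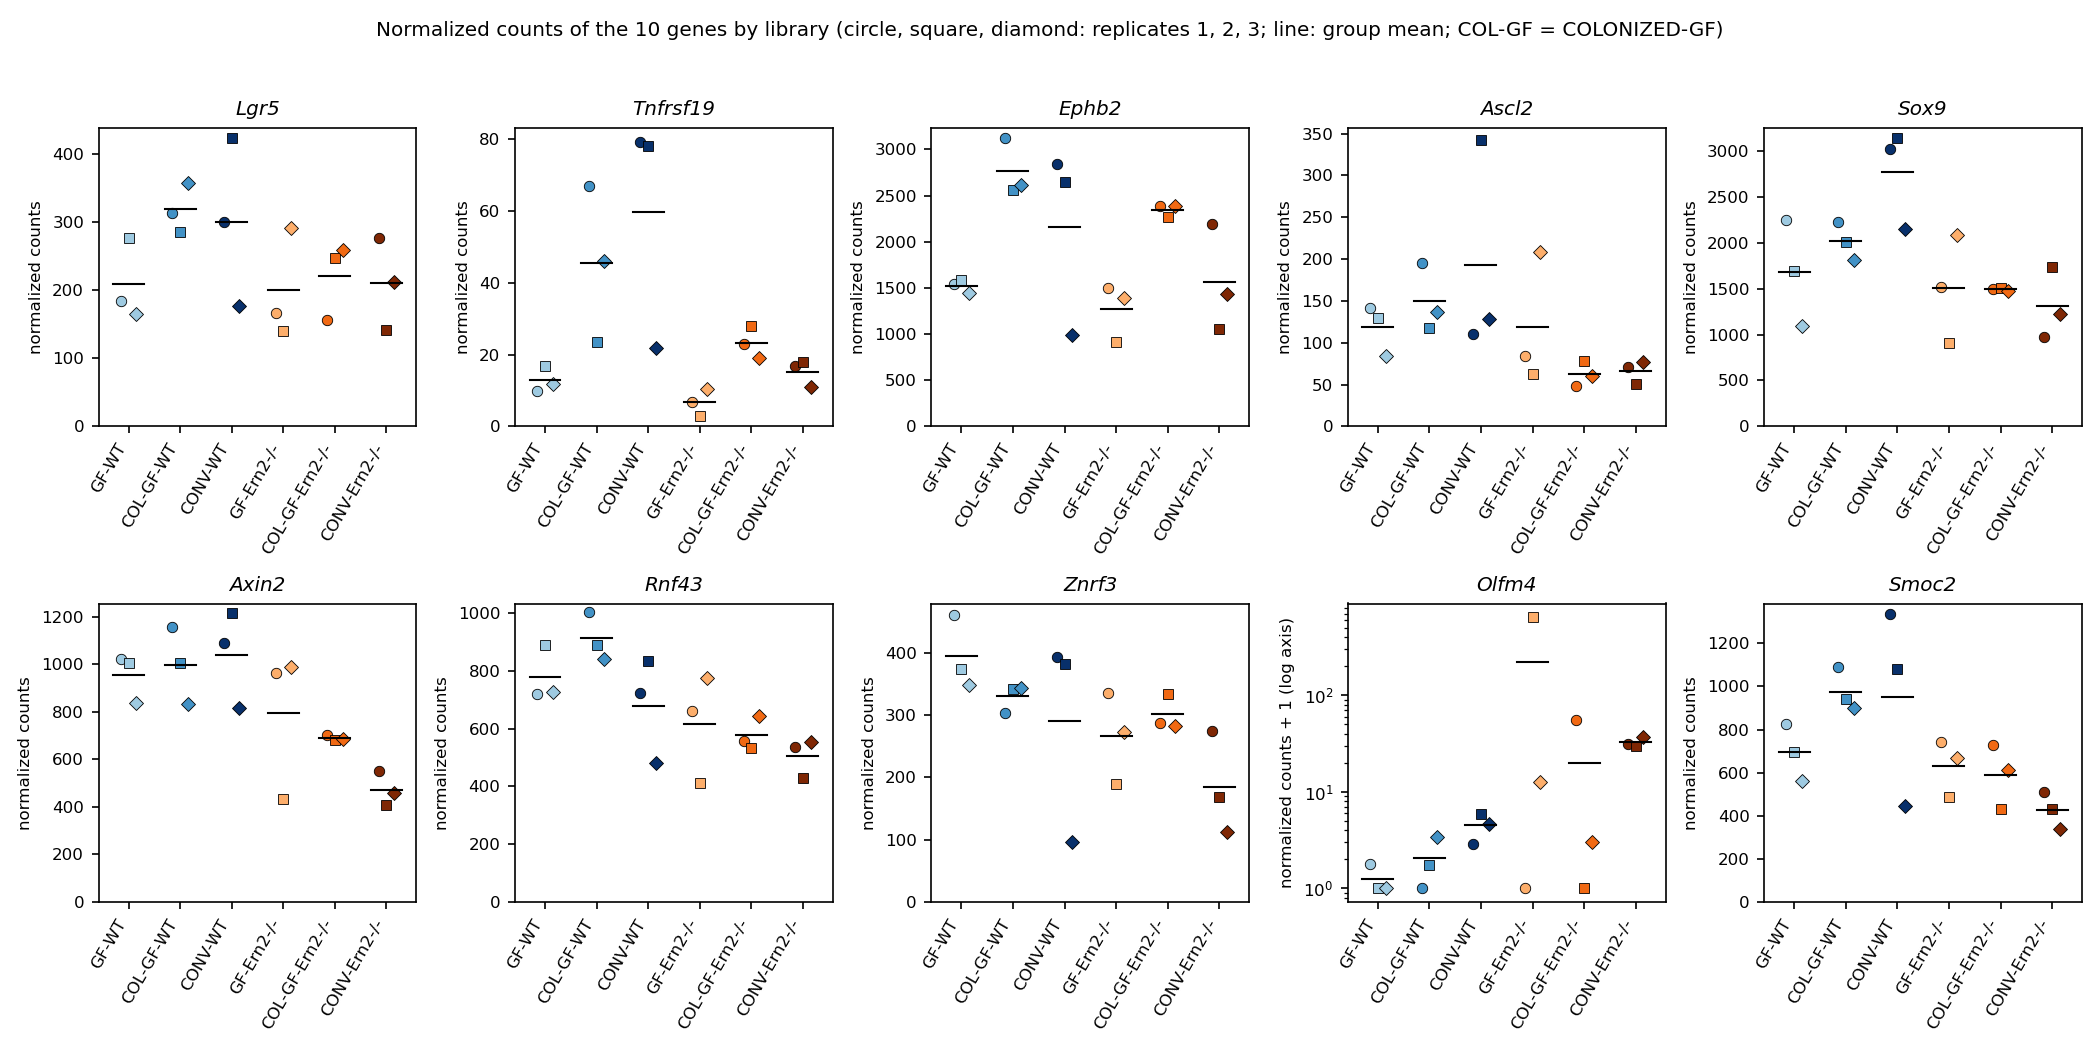
Normalized counts (vertical axes) of the 10 genes in the 6 groups (horizontal axes), with 1 symbol per library and a line at the group mean. Axes start at 0 except for Olfm4, which is shown as normalized counts plus 1 on a log axis. CONV-WT replicate 3 and GF-Ern2-/- replicate 2 lie below their groups in most panels, and Olfm4 reaches 642 in GF-Ern2-/- replicate 2.

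Lgr5 is the R-spondin receptor that defines crypt base stem cells (chr10:115450311-115587780, minus strand). GF-WT libraries had 184, 277 and 165 normalized counts, COLONIZED-GF-WT had 313, 286 and 358, and CONV-WT had 300, 424 and 177. The Ern2-/- libraries had 167, 140 and 292 when GF, 157, 248 and 259 after colonization and 276, 142 and 212 when CONV. The highest group mean was 319 ± 36.5 (SD, n = 3) in COLONIZED-GF-WT and the lowest was 200 ± 80.9 in GF-Ern2-/-. No step between neighboring groups in the order of means exceeded the larger SD. Lgr5 was called in no comparison by the DESeq2 fit of the groups compared with all their libraries. COLONIZED-GF-WT lay above GF-WT in all 3 libraries against all 3, with a log2 fold change of 0.62 ± 0.23 (SE) and an adjusted p of 0.0289 from DESeq2.

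Tnfrsf19 encodes TROY, a receptor of the tumor necrosis factor family and a Wnt target of intestinal stem cells (chr14:60963875-61046490, minus strand). GF libraries had almost none of it, with normalized counts of 9.99, 16.8 and 11.8 in GF-WT and 6.71, 3.01 and 10.4 in GF-Ern2-/-. Libraries from WT mice with microbes held more, at 67.0, 23.5 and 46 in COLONIZED-GF-WT and 79.2, 78.0 and 21.9 in CONV-WT. In Ern2-/- mice they were 22.8, 27.9 and 19.1 in COLONIZED-GF and 16.7, 17.8 and 11.0 in CONV libraries. Both WT groups with microbes lay above GF-WT without overlap. Tnfrsf19 rose 4.66-fold in CONV-WT (log2 fold change 2.22 ± 0.58 SE, adjusted p = 0.00168) and 3.56-fold in COLONIZED-GF-WT (1.83 ± 0.49, adjusted p = 0.00167) by DESeq2, 2 comparisons that share the GF-WT libraries. In COLONIZED-GF-Ern2-/- all 3 libraries lay above GF-Ern2-/-, with a log2 fold change of 1.80 ± 0.64 that was not called (adjusted p = 0.0390). The 2 genotypes differed in this response by -0.03 on the log2 scale, with a 95% interval from -1.47 to 1.42. With the Y-linked pattern as a covariate the log2 fold change against GF-WT was 0.88 in COLONIZED-GF-WT (adjusted p = 0.506) and 1.97 in CONV-WT (adjusted p = 0.0357), so neither call was kept. Single libraries also decided these calls. The call in CONV-WT against GF-WT was lost without CONV-WT replicate 1 or 2 or GF-WT replicate 1 or 3. That in COLONIZED-GF-WT against GF-WT was lost without COLONIZED-GF-WT replicate 1 or 3 or GF-WT replicate 3. Adjusted p reached at most 0.0598 in these DESeq2 fits. Among the libraries with microbes, Tnfrsf19 in CONV-Ern2-/- lay below all of CONV-WT (log2 fold change -1.97 ± 0.64, adjusted p = 0.0432).

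Promoter windows of 250 bases before a RefSeq start (GRCm38.p6) were found for 6 of the 10 genes, 8 windows in all, and both strands were searched. Of these 6 genes, Tnfrsf19 alone had a window that held the letters CTTTGA, the core that TCF/LEF factors recognize. The second listed start of Tnfrsf19 held CTTTGATC on the strand opposite the gene, beginning 203 bases before the start, and CAGCTG, an E-box of the kind bound by ASCL factors, near its end. Of 32851 mouse windows of this length, 13.8% held CTTTGA, 0.801% held CTTTGATC, which contains it, and 13.0% held CAGCTG. None of the other 7 windows held any of the 3. Those of Axin2 and Ephb2 are shown for comparison, as 1 gene called between genotypes and 1 called after colonization in both genotypes. The sequences are written 5′ to 3′ on the strand of each gene, with matches in capitals, and a match is a description of letters only.
Tnfrsf19, second start (chr14:61037988-61038237, minus strand): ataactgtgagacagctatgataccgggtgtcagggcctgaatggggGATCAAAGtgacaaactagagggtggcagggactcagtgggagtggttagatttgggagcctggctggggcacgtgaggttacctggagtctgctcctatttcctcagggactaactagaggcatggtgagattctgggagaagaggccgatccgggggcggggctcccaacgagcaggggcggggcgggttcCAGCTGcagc
Axin2 (chr11:108920099-108920348, plus strand): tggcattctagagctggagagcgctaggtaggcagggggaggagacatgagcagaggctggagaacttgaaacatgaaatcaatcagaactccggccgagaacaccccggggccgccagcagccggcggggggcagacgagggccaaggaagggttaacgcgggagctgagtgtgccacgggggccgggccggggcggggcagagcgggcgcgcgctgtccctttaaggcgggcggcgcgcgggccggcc
Ephb2 (chr4:136836013-136836262, minus strand): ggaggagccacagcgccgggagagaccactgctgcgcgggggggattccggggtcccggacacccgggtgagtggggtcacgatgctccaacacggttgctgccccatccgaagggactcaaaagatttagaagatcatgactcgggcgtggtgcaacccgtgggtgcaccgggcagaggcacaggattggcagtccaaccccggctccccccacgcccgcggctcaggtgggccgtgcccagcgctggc

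Ephb2 is the receptor tyrosine kinase whose gradient keeps proliferating cells at the crypt base (chr4:136647539-136835988, minus strand). Colonization of germ-free mice was accompanied by more Ephb2 in both genotypes. The WT libraries had 1543, 1587 and 1440.5 when GF and 3122, 2564 and 2612 normalized counts after colonization. The Ern2-/- libraries had 1503, 910 and 1387 when GF and 2386, 2265 and 2386 after colonization. The groups did not overlap in either genotype. Ephb2 rose 1.83-fold in WT mice (log2 fold change 0.87 ± 0.13 SE, DESeq2 adjusted p = 7.23e-09) and 1.85-fold in Ern2-/- mice (0.89 ± 0.23, adjusted p = 0.00184). In WT mice edgeR called it as well (adjusted p = 0.00575), and all 6 fits that left out 1 library kept the call, while the fit of all 18 libraries did not (adjusted p = 0.0506). In Ern2-/- mice edgeR gave an adjusted p of 0.0413, and the call was lost without any 1 of the COLONIZED-GF-Ern2-/- libraries (adjusted p 0.0219 to 0.0310). The difference between the genotypes in this response was 0.02 on the log2 scale, with a 95% interval from -0.47 to 0.52.

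CONV mice spread more widely in Ephb2. Values were 2848, 2646 and 986 in CONV-WT and 2189, 1051 and 1438 in CONV-Ern2-/-. CONV-WT against GF-WT was not called, with a log2 fold change of 0.49 ± 0.41. Without CONV-WT replicate 3 it was 0.85 and called (adjusted p = 3.46e-09), as was Smoc2 at 0.80 (adjusted p = 0.00238), in a DESeq2 fit that called 21.5% of all genes.

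Ascl2, a basic helix-loop-helix factor of crypt base stem cells (chr7:142966829-142969264, minus strand), had its lowest levels in Ern2-/- mice with microbes. Normalized counts were 48.4, 78.3 and 60.2 in COLONIZED-GF-Ern2-/- and 71.0, 51.1 and 77.3 in CONV-Ern2-/-. The WT counterparts held 195, 118 and 137 in COLONIZED-GF and 110, 342 and 128 in CONV libraries, so that genotypes did not overlap in either state. GF libraries held 142, 130 and 84.7 in WT and 84.3, 62.2 and 209 in Ern2-/- mice, which overlapped. Ascl2 fell to 0.415 of its WT level in COLONIZED-GF-Ern2-/- mice (log2 fold change -1.27 ± 0.28 SE, DESeq2 adjusted p = 0.00121). In CONV mice the log2 fold change was -1.54 ± 0.52 (adjusted p = 0.0524), and it depended on single libraries. Without CONV-WT replicate 3 it was -1.76 and called (adjusted p = 0.00520), without CONV-WT replicate 2, the library at 342, it was -0.84 (adjusted p = 0.569), and with the Y-linked pattern as a covariate it was -0.73 (adjusted p = 0.729). The call in COLONIZED-GF mice was lost without COLONIZED-GF-WT replicate 1 or 3 or COLONIZED-GF-Ern2-/- replicate 3, with adjusted p from 0.0132 to 0.0685.

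Sox9 is a Wnt-responsive factor of the crypt base and of secretory progenitors (chr11:112782224-112787760, plus strand). It had 3016, 3137 and 2144 normalized counts in CONV-WT against 969, 1739.7 and 1222 in CONV-Ern2-/-. The 2 groups did not overlap, and DESeq2 gave a log2 fold change of -1.08 ± 0.30 with an adjusted p of 0.0112, just short of the threshold of 0.01. It was called without CONV-WT replicate 3 (-1.23, adjusted p = 1.96e-04) or without CONV-Ern2-/- replicate 2 (-1.34, adjusted p = 9.22e-04). Leaving out any of the other 4 libraries gave adjusted p from 0.0982 to 0.207. COLONIZED-GF libraries held 2220.4, 2005 and 1815 in WT and 1497, 1511 and 1470.4 in Ern2-/- mice, again without overlap (-0.44 ± 0.12, adjusted p = 0.0196). GF libraries ranged from 1098 to 2243 in WT and from 911 to 2083 in Ern2-/- mice.

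Axin2 is the scaffold of the β-catenin destruction complex and a target gene of the same pathway (chr11:108920349-108950783, plus strand). In WT mice its group means were 955 ± 100 in GF, 998 ± 162 in COLONIZED-GF and 1040.4 ± 204 in CONV mice (SD, n = 3 each). In Ern2-/- mice they were 795 ± 315, 688 ± 11.0 and 472 ± 71.8. The 3 CONV-Ern2-/- libraries held 550, 409 and 458 normalized counts against 1089, 1216 and 816 in CONV-WT, without overlap. Axin2 fell to 0.457 of its level in CONV-WT (log2 fold change -1.13 ± 0.25 SE, DESeq2 adjusted p = 6.57e-04). The adjusted p was 0.0919 by edgeR and 0.0778 with the Y-linked pattern as a covariate. The call was lost without CONV-WT replicate 1 or 2 or CONV-Ern2-/- replicate 2 or 3, with adjusted p from 0.0272 to 0.0761 and the log2 fold change between -1.10 and -1.01. COLONIZED-GF libraries of the 2 genotypes did not overlap, at 701, 680 and 684 in Ern2-/- and 1156, 1006 and 832 in WT mice (-0.54 ± 0.15, adjusted p = 0.0204).

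Axin2 in GF-Ern2-/- held 964, 432 and 989 normalized counts, and the second value came from the library that stood apart. CONV-Ern2-/- against GF-Ern2-/- gave -0.76 ± 0.35 (DESeq2 adjusted p = 0.199) with that library. Without it Axin2 was called, at -1.05 (adjusted p = 2.02e-04, in a fit that called 7.40% of all genes), and it was also called in COLONIZED-GF-Ern2-/- against GF-Ern2-/- (-0.49, adjusted p = 0.00487, with 10.4% of all genes called). Both of these rest on 2 GF-Ern2-/- libraries.

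Rnf43 and Znrf3 encode the related membrane E3 ligases that remove Frizzled receptors. Rnf43 (chr11:87662722-87735539, plus strand) had 1003, 890 and 842 normalized counts in COLONIZED-GF-WT and 556, 534 and 644 in COLONIZED-GF-Ern2-/-. It fell to 0.633 of the WT level there, with no overlap (log2 fold change -0.66 ± 0.14 SE, DESeq2 adjusted p = 4.15e-04). The edgeR adjusted p was 0.0925, and the call was lost without COLONIZED-GF-WT replicate 1 (adjusted p = 0.0220) or 2 (adjusted p = 0.0143). In CONV mice Rnf43 held 724, 833 and 480 in WT and 537, 429 and 552 in Ern2-/- libraries, which overlapped.

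Znrf3 (chr11:5276324-5444847, minus strand) was called in no comparison by the same fit. It was the only one of the set whose GF-Ern2-/- values, 336, 190 and 273, all lay below GF-WT, at 461, 374 and 348. DESeq2 gave -0.56 ± 0.27 with an unadjusted p of 0.0392 and an adjusted p of 1. Its lowest values were 96.8 in CONV-WT replicate 3 and 113 in CONV-Ern2-/- replicate 3, 2 of the shallowest libraries.

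Smoc2, a secreted calcium-binding matrix protein that is a marker of Lgr5-expressing stem cells (chr17:14279506-14404790, plus strand), was also called in no comparison by that fit, although some alternatives called it (adjusted p = 0.00833 between CONV genotypes with all 18 libraries in 1 DESeq2 fit). Normalized counts were 1335, 1079 and 444 in CONV-WT and 508, 429 and 337 in CONV-Ern2-/-, so the groups overlapped through CONV-WT replicate 3 alone (log2 fold change -1.16 ± 0.43 SE, DESeq2 adjusted p = 0.0944). Without that library Smoc2 was called at -1.50 (adjusted p = 3.58e-07), and leaving out any of the other 5 gave adjusted p from 0.139 to 0.663. In COLONIZED-GF mice, WT libraries held 1089, 940 and 899 and Ern2-/- libraries 726, 429 and 612, without overlap (-0.73 ± 0.20, adjusted p = 0.0127).

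Olfm4, an olfactomedin that marks stem cells of the small intestine and is scarce in mouse colon (chr14:79984081-80023139, plus strand), followed a pattern of its own. WT libraries held 1, 0 and 0 counts in GF, 0, 1 and 3 in COLONIZED-GF, and 2, 5 and 2 in CONV mice. Ern2-/- libraries held 0, 640 and 11 counts in GF, 76, 0 and 2 in COLONIZED-GF, and 29, 13 and 13 in CONV mice. Of the 3 microbial states, CONV was the only one in which the genotypes did not overlap. Olfm4 rose in CONV-Ern2-/- against CONV-WT (log2 fold change 3.19 ± 0.72 SE, DESeq2 adjusted p = 6.77e-04), with normalized counts of 30.3, 28.9 and 35.9 against 1.89, 4.94 and 3.65.

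Summed over libraries, 55 Olfm4 counts in CONV-Ern2-/- stood against 9 in CONV-WT, a ratio per total count of 8.39 with an exact 95% interval of 4.12 to 19.3 that covers counting error only. The edgeR adjusted p was 0.0617, and the DESeq2 adjusted p was 0.0627 with the Y-linked pattern as a covariate and 0.351 with all 18 libraries in 1 fit. Leaving out any library except CONV-WT replicate 3 ended the call (adjusted p 0.0111 to 0.0638, or none given without CONV-Ern2-/- replicate 1). In comparisons with GF-Ern2-/-, DESeq2 set no p for Olfm4 because of the 640 counts in 1 library.

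That library, GF-Ern2-/- replicate 2, was also high in small-intestine genes. It held 6626 normalized counts of Apoa1, an apolipoprotein of absorptive cells, where the other 17 libraries ran from 0 to 817. Fabp6, the ileal bile acid binding protein, was at 3299 against 39.6 to 618, and Lyz1, a Paneth cell lysozyme, at 89.2 against 0 to 6.02. The summed level of 9 such genes was 11708 there, 470 and 1654 in the other GF-Ern2-/- libraries, and 389 to 1203 in GF-WT. In the CONV comparison the sums were 455, 518 and 720 in CONV-Ern2-/- and 102, 108 and 409 in CONV-WT, and 3 of the 9 genes had no count in any CONV-Ern2-/- library. Rbp2, a retinol binding protein of absorptive cells, made up 351, 469 and 668 of the sums in CONV-Ern2-/- and 34.9, 38.5 and 294 in CONV-WT. Without Rbp2 the sums overlapped, at 104, 48.9 and 52.4 against 67.0, 69.1 and 115. Only 2 of the 9 genes, Rbp2 and Fabp6, had enough counts for an adjusted p there, and neither was called. The 9 genes were listed after the values of this library had been seen, and their part in the Olfm4 result was not tested.

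**Figure D2:**
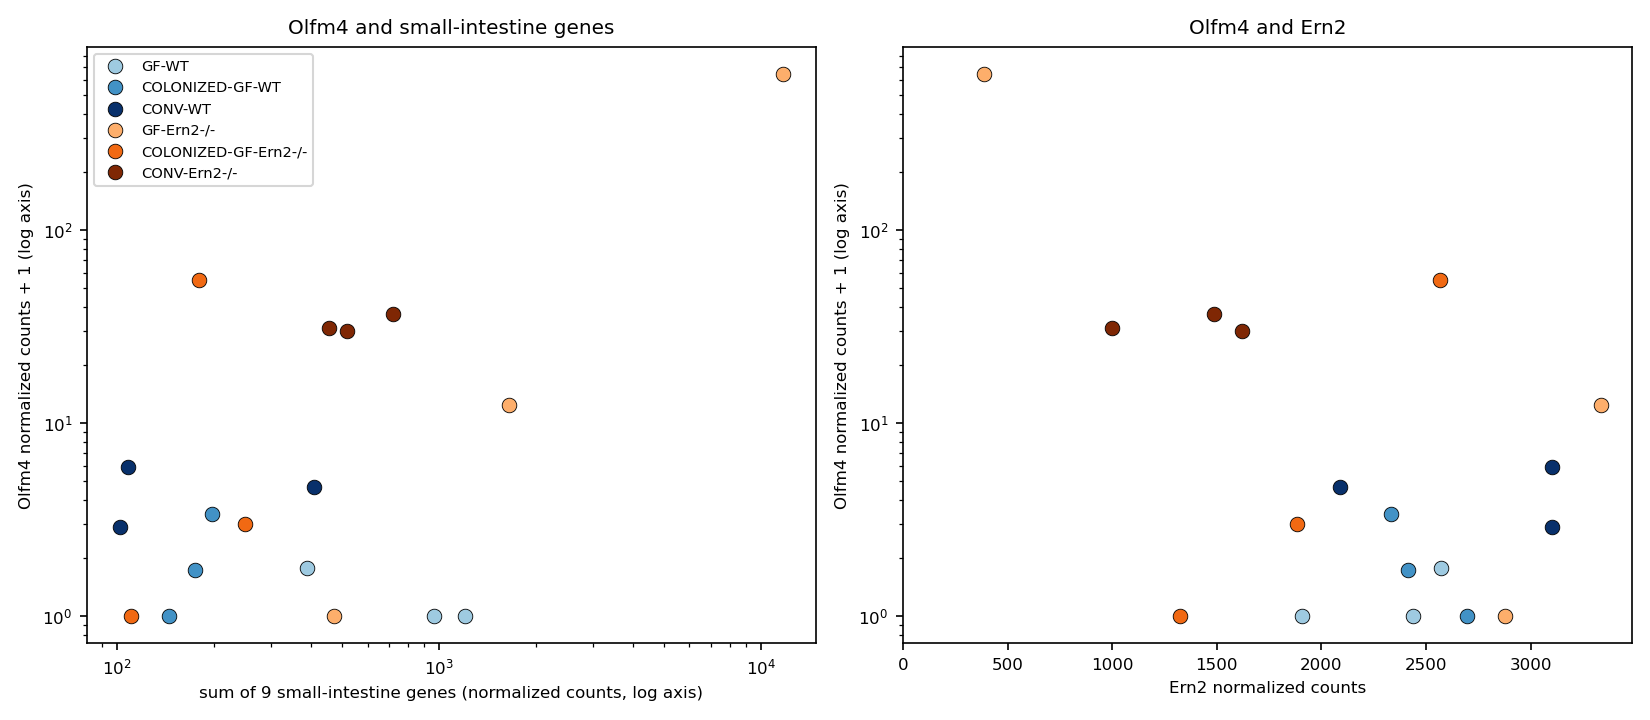
Olfm4 in each library (vertical axes, normalized counts plus 1, log axis) against the sum of 9 small-intestine genes (left, normalized counts, log axis) and against Ern2 (right, normalized counts), colored by group. GF-Ern2-/- replicate 2 is the point at the top of both panels, and the 3 CONV-Ern2-/- libraries lie together between 28.9 and 35.9.

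Counted over the set, log2 fold changes were mostly negative in Ern2-/- against WT mice with microbes, and few genes were called. In CONV-Ern2-/- against CONV-WT, 2 of 10 genes were called, Axin2 lower and Olfm4 higher, where DESeq2 called 2.87% of 13260 genes tested. The 9 genes other than Olfm4 all had negative log2 fold changes, from -1.97 to -0.43, with a median of -1.08 beside 0.02 over all genes tested. In 4 of 10 genes, Tnfrsf19, Ascl2, Sox9 and Axin2, all 3 Ern2-/- libraries lay below all 3 WT libraries, as they did in 11.5% of all genes tested. Without CONV-WT replicate 3, 6 were called, namely Ascl2, Axin2, Smoc2, Sox9 and Tnfrsf19 lower and Olfm4 higher, in a fit that called 13.1% of all genes. Without CONV-WT replicate 1, CONV-WT replicate 2 or CONV-Ern2-/- replicate 3, or with the Y-linked pattern as a covariate, 0 were called, in fits that called 1.01%, 0.943%, 1.48% and 1.99% of all genes. By edgeR 0 were called, where 6 of 10 had an unadjusted p under 0.05, as did 15.4% of all genes, and 0 of all genes were called.

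In COLONIZED-GF-Ern2-/- against COLONIZED-GF-WT, 2 of 10 were called, Ascl2 and Rnf43, both lower, beside 1.20% of 13591 genes tested. The same 9 genes had negative values, from -1.27 to -0.13, with a median of -0.54 beside -0.01 over all genes. In 7 of 10 the Ern2-/- libraries all lay below the WT libraries, Znrf3, Tnfrsf19 and Olfm4 being the exceptions, against 13.7% of all genes. By edgeR 0 of the set and 1 of all genes were called, with 7 of the set and 21.9% of all genes at an unadjusted p under 0.05. Neither Ascl2 nor Rnf43 was called with all 18 libraries in 1 fit or with the library total as a covariate. In both states the 9 genes share libraries and cell source, so they are not independent replicates of one another.

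In GF-Ern2-/- against GF-WT none of the 9 genes with an adjusted p was called by DESeq2, 1 had an unadjusted p under 0.05 (Znrf3), and edgeR gave the same counts. DESeq2 called 0.0350% of all genes tested in that comparison. With all libraries 8 of the 9 had negative log2 fold changes, with a median of -0.26 beside 0.02 over all genes. Without GF-Ern2-/- replicate 2 only 4 of 9 were negative, and the median was 0.01 beside -0.01. In 1 of 10 genes, Znrf3, all GF-Ern2-/- libraries lay lower, against 3.23% of all genes.

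**Figure D3:**
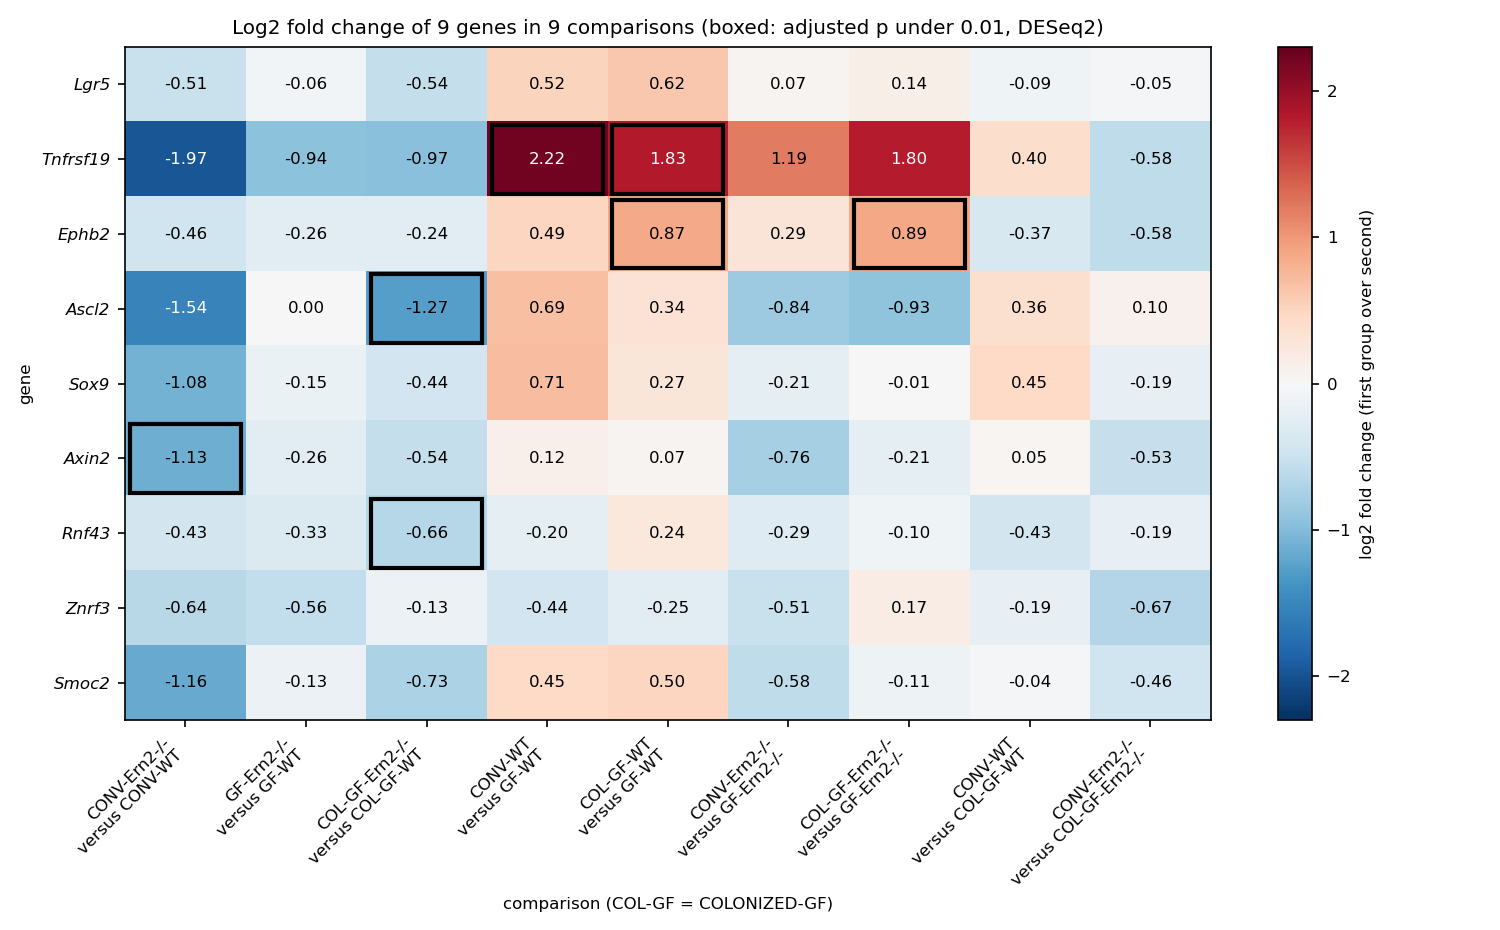
Log2 fold changes (color and numbers, first group over second) of 9 genes (rows) in the 9 comparisons between groups (columns), with Olfm4 left out because of its low counts. Boxes mark an adjusted p under 0.01 by DESeq2. The columns of Ern2-/- against WT in CONV and COLONIZED-GF mice hold negative values throughout, and Tnfrsf19 has the largest rise, at 2.22.

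Microbes in WT mice went with few calls in the set. CONV-WT against GF-WT called 1 of 9 genes tested, Tnfrsf19, and COLONIZED-GF-WT against GF-WT called 2 of 9, Tnfrsf19 and Ephb2. DESeq2 called 11.0% and 17.8% of all genes in those comparisons, so the share of the set was close to the background. The edgeR counts were 0 (2 at an unadjusted p under 0.05) and 1 (Ephb2). Olfm4 was too low for an adjusted p in either.

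In Ern2-/- mice, CONV against GF called 0 of 9 genes by DESeq2, with 2 at an unadjusted p under 0.05 (Axin2 and Smoc2), and 0 by edgeR, beside 4.10% of all genes by DESeq2. COLONIZED-GF against GF called 1 of 9, Ephb2, beside 7.65%. Without GF-Ern2-/- replicate 2 the 9 genes went from 5 negative and 4 positive to 7 negative and 2 positive in that comparison, and from 6 and 3 to 7 and 2 in CONV against GF. CONV-WT against COLONIZED-GF-WT called 0 of 10 by DESeq2 and by edgeR, with 1 (Sox9) at an unadjusted p under 0.05 by both, beside 0.108% of all genes. Without CONV-WT replicate 3 Sox9 was called by DESeq2 (0.60, adjusted p = 8.79e-04, with 1.59% of all genes called), and the 9 genes other than Olfm4 went from 5 negative and 4 positive to 2 negative and 7 positive. CONV-Ern2-/- against COLONIZED-GF-Ern2-/- also called 0 of 10 by both tools, with 3 at an unadjusted p under 0.05 by DESeq2 (Axin2, Ephb2 and Znrf3) and 2 by edgeR, beside 8.59% of all genes. Without CONV-Ern2-/- replicate 1, these 3 genes were called lower in CONV mice, at -0.67, -0.91 and -1.08, in a fit that called 21.3% of all genes. With all libraries of that comparison, 9 of 17 proliferation genes and 5 of 10 goblet genes were lower in CONV mice by DESeq2. Of the surface colonocyte genes, 6 of 10 were higher. By edgeR 0, 0 and 2 genes of these lists were called, and their part in the values of the set was not tested.

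Whether the response to microbes differed between genotypes was tested as an interaction. For CONV against GF, DESeq2 called 0 of 9 genes, with 3 at an unadjusted p under 0.05 (Ascl2, Axin2 and Smoc2), and edgeR called 0, with 2 below that limit. Ascl2 had the most negative interaction of the 9, at -1.54 ± 0.74 (95% interval -2.99 to -0.08, adjusted p = 0.524). DESeq2 called 0.177% of all genes. Without CONV-WT replicate 3, Smoc2 was called (-1.37, adjusted p = 0.00791), with 2.16% of all genes. Without both CONV-WT replicate 3 and GF-Ern2-/- replicate 2, a choice made after seeing the data, Axin2 (-1.31, adjusted p = 5.20e-05) and Smoc2 (-1.52, adjusted p = 4.69e-04) were called, with 4.95% of all genes. For COLONIZED-GF against GF, 0 of 9 were called by either tool, 1 by DESeq2 and 0 by edgeR had an unadjusted p under 0.05, and DESeq2 called 0.0280% of all genes. That 1 gene was again Ascl2 (-1.26 ± 0.58, adjusted p = 0.845).

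Other genes of the pathway were read from lists of known members. Of 14 receptor genes, 3 rose and 4 fell in COLONIZED-GF-WT against GF-WT by DESeq2, where 17.8% of all genes were called, and edgeR called 1 of them, Fzd9. Fzd9 rose most clearly (log2 fold change 2.23 ± 0.41 SE, adjusted p = 1.77e-06) with Lrp5 (0.50 ± 0.12, adjusted p = 3.42e-04), a Wnt co-receptor. Lgr4, the relative of Lgr5 that is expressed along the whole crypt, fell (-0.65 ± 0.14, adjusted p = 3.65e-05), while Fzd2 rose (1.62 ± 0.43, adjusted p = 0.00159). Fzd2, like Fzd9, encodes a Frizzled receptor. In CONV-WT against GF-WT 2 rose and 1 fell by DESeq2, where 11.0% of all genes were called, and edgeR called 0 of them. Against GF-Ern2-/-, 2 fell in CONV-Ern2-/- (Fzd6 and Lgr4) and 1 rose in COLONIZED-GF-Ern2-/- (Fzd3) by DESeq2. These stand beside 4.10% and 7.65% of all genes, and edgeR called 0 in either. In the 3 comparisons of genotype 0 of 14 were called by DESeq2 or edgeR.

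Of 24 genes of signal transduction, 1 rose (Tcf7, 0.86 ± 0.24, adjusted p = 0.00315) and 1 fell (Tcf7l2, -0.71 ± 0.17, adjusted p = 5.18e-04) in COLONIZED-GF-WT against GF-WT by DESeq2. Both encode TCF factors that bring β-catenin to DNA. These are 2 of 22 genes with an adjusted p, a share below that of all genes in the comparison, and edgeR called neither (adjusted p = 0.0216 and 0.0160). None of the 24 was called in a comparison of genotype by DESeq2 or edgeR. Of 32 genes of Wnt ligands, their secretion and secreted inhibitors, 10 had an adjusted p in that WT comparison, and 1 was called, beside 17.8% of all genes. Notum, a Wnt-inactivating enzyme and itself a target gene, rose from a mean of 1.19 to 20.8 normalized counts (4.13 ± 0.92, adjusted p = 1.24e-04, and 0.00955 by edgeR). In CONV-WT against GF-WT 2 were called by DESeq2, Notum (3.47 ± 0.93, adjusted p = 0.00251) and the ligand Wnt5b (2.80 ± 0.86, adjusted p = 0.00972). They were 2 of 10 tested, beside 11.0% of all genes, and edgeR tested neither there. Between genotypes 1 was called by DESeq2, the secreted Wnt inhibitor Wif1, which rose in COLONIZED-GF-Ern2-/- against COLONIZED-GF-WT (2.73 ± 0.71, adjusted p = 0.00992, and 0.164 by edgeR). It was 1 of 10 tested there, beside 1.20% of all genes. Against GF-Ern2-/-, DESeq2 called Wls, which serves Wnt secretion, lower in CONV-Ern2-/- and the ligands Wnt11 and Wnt5a higher in COLONIZED-GF-Ern2-/-. Of all genes 4.10% and 7.65% were called there, and edgeR called 0 of the list in either.

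Of 13 further target genes, 4 rose and 0 fell in each WT comparison with GF-WT by DESeq2, where 11.0% (CONV) and 17.8% (COLONIZED-GF) of all genes were called, and edgeR called 0 and 1 of them. Ccnd1, Cd44 and Nkd1 were called in both, Fermt1 in CONV-WT and Ephb3 in COLONIZED-GF-WT. Ccnd1, which drives entry into S phase, rose from 1117 to 3060.2 normalized counts in CONV-WT (1.44 ± 0.14, adjusted p = 6.97e-21) and to 3324 in COLONIZED-GF-WT (1.58 ± 0.17, adjusted p = 6.12e-18). Cd44, an adhesion receptor of the crypt base, rose by 1.90 ± 0.41 and 2.03 ± 0.55 (adjusted p = 8.14e-05 and 0.00215). Both genes rose in Ern2-/- mice as well, against GF-Ern2-/-. In COLONIZED-GF mice 2 of the 13 were lower in Ern2-/- than in WT, Ephb3, the close relative of Ephb2 (-1.09 ± 0.18, adjusted p = 1.16e-06), and Myc (-0.63 ± 0.16, adjusted p = 0.00841). DESeq2 called 1.20% of all genes in that comparison, and by edgeR neither gene was called (adjusted p = 0.0659 and 0.154). Of 15 other crypt base genes only Hopx was called between genotypes, lower in Ern2-/- in CONV (-1.07 ± 0.27, adjusted p = 0.00347) and COLONIZED-GF mice (-0.87 ± 0.15, adjusted p = 9.12e-06) by DESeq2. DESeq2 called 2.87% (CONV) and 1.20% (COLONIZED-GF) of all genes in these comparisons, and the edgeR adjusted p of Hopx was 0.111 and 0.0688. The list had a median log2 fold change of -0.76 between CONV genotypes, but its genes did not all fall. Prom1, which was not called, held 15206, 7779 and 10306 normalized counts in CONV-Ern2-/- and 5029, 6131 and 4067 in CONV-WT. Of the same list, 3 rose and 0 fell in CONV-WT against GF-WT, and 5 rose and 0 fell in COLONIZED-GF-WT against GF-WT, among 14 tested by DESeq2 (0 called by edgeR), beside 11.0% and 17.8% of all genes. Mex3a (1.91 ± 0.27, adjusted p = 1.93e-10, and 1.21 ± 0.36, adjusted p = 0.00581), an RNA-binding protein of stem cells, Msi1 and Igfbp4 were called in both.

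Markers of neighboring cells moved in some of the same comparisons. Of 17 proliferation genes, 17 rose in COLONIZED-GF-WT and 15 in COLONIZED-GF-Ern2-/- against their GF groups by DESeq2, the comparisons in which Ephb2 rose, and 11 rose in CONV-WT against GF-WT, where 17.8%, 7.65% and 11.0% of all genes were called. By edgeR 12, 1 and 0 of the 17 were called in these 3 comparisons. In CONV-Ern2-/- against GF-Ern2-/- 0 of the 17 were called by DESeq2 or edgeR, with a median log2 fold change of 0.23. DESeq2 called 4.10% of all genes there. Summed normalized counts of the 17 ran from 10194 to 15582 in GF-WT and from 25614 to 28872 in COLONIZED-GF-WT. Over the 18 libraries, log2 Ephb2 correlated with the log2 sum at Pearson r = 0.83 (Spearman rho = 0.75) and Tnfrsf19 at 0.77 (0.80), but Axin2 at 0.26 (0.15) and Ascl2 at 0.10 (-0.08). Surface colonocyte genes moved as well, with 1 of 10 higher and 2 lower in COLONIZED-GF-WT, 3 lower in COLONIZED-GF-Ern2-/- and 4 lower in CONV-WT against their GF groups (0, 2 and 0 called by edgeR). Car4, a carbonic anhydrase of surface cells, fell in all 3 (-2.51 ± 0.62, -2.15 ± 0.24 and -3.11 ± 0.52 by DESeq2, adjusted p = 5.49e-04, 1.71e-16 and 1.90e-07). The small-intestine gene Apoa1 was called lower in the same 3 comparisons, and Rbp2 in the 2 with COLONIZED-GF mice. Goblet genes went both ways against the GF groups. Of 10, 5 rose and 2 fell in COLONIZED-GF-WT, and 3 rose and 1 fell in COLONIZED-GF-Ern2-/- by DESeq2. In CONV-WT 2 rose and 2 fell, and edgeR called 4, 0 and 0 goblet genes in these 3 comparisons. In CONV-Ern2-/- against GF-Ern2-/-, 0 of 10 surface genes were called by DESeq2 or edgeR. Of the 10 goblet genes 0 rose and 3 fell there by DESeq2, and edgeR called 0. The part of these cells in the rises of Ephb2 and Tnfrsf19 was not tested. With the summed level of surface colonocyte genes, Pearson r was negative for all 9 genes other than Olfm4, from -0.81 for Sox9, -0.72 for Tnfrsf19 and -0.64 for both Axin2 and Smoc2 to -0.31 for Znrf3. The points share their groups and the depth of each library, so these are descriptions.

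**Figure D4:**
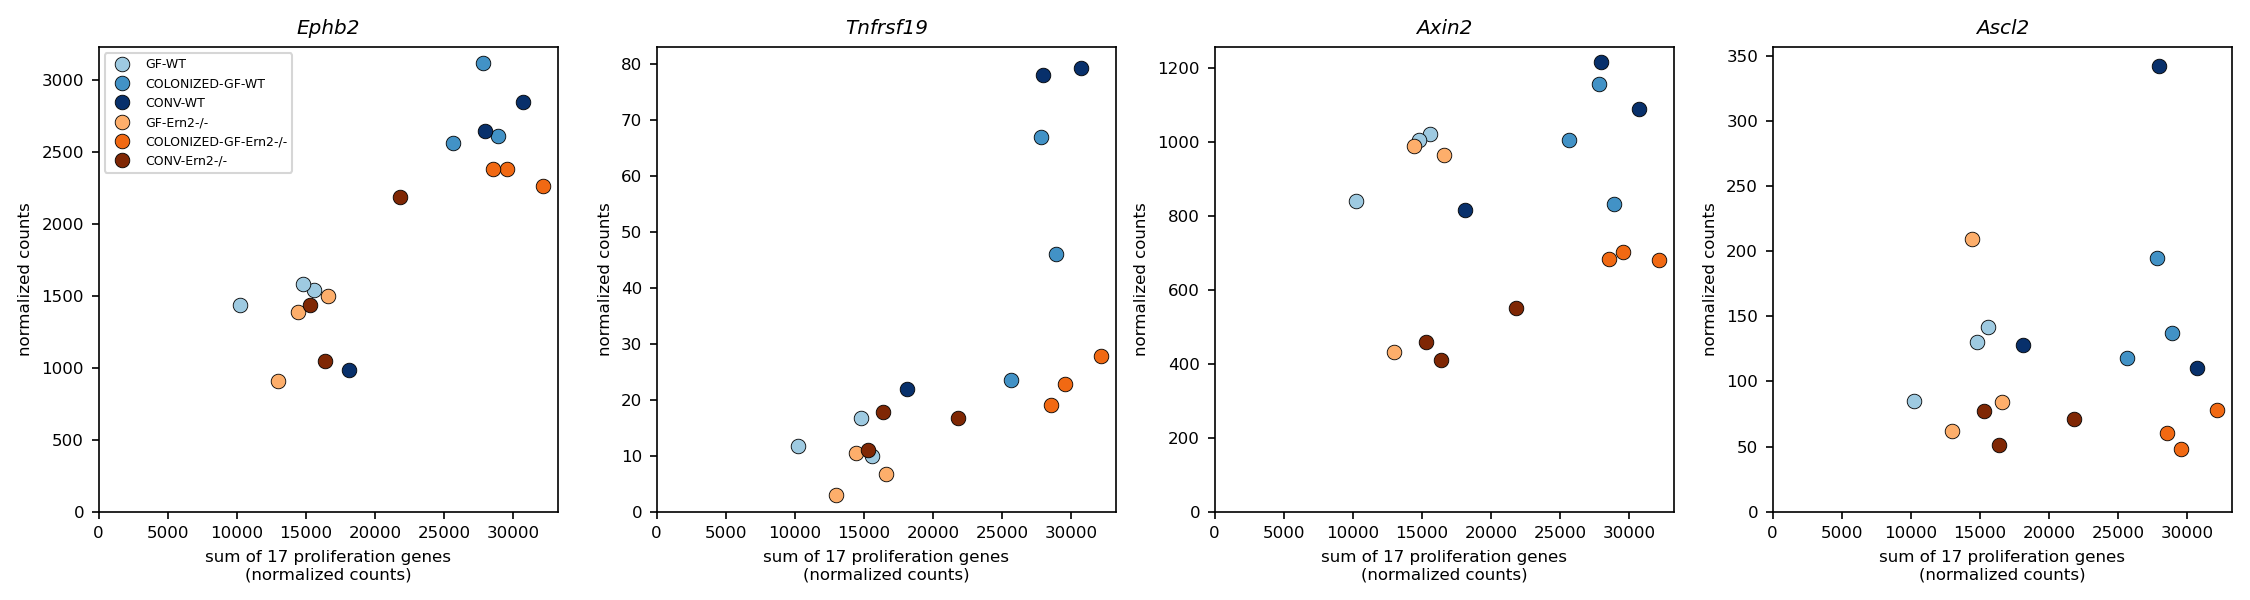
Normalized counts of Ephb2, Tnfrsf19, Axin2 and Ascl2 (vertical axes) against the sum of 17 proliferation genes (horizontal axes, normalized counts), with 1 point per library colored by group. In the libraries with a sum of 18135 or less Ephb2 is at most 1587, while Axin2 is lowest in CONV-Ern2-/- and in GF-Ern2-/- replicate 2.

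In the CONV comparison of genotypes, 5 of 10 surface colonocyte genes rose and 5 of 10 goblet cell genes fell in Ern2-/- mice. These calls were by DESeq2, which called 2.87% of all genes there, and edgeR called none of these genes. The goblet list includes the targeted gene Ern2, which was not among those called. Summed goblet genes ran from 65360.1 to 74386 in CONV-Ern2-/- and were 457773, 414962 and 76961 in CONV-WT. The third WT library thus lay near the Ern2-/- level. Summed surface genes ran from 80325 to 124127 in CONV-Ern2-/- and from 26116 to 39733 in CONV-WT, without overlap. Summed proliferation genes overlapped, at 15314 to 21815 in CONV-Ern2-/- and 18135 to 30710.2 in CONV-WT. Of these 17 genes 0 were called there by DESeq2 or edgeR, with a median log2 fold change of -0.58. The surface marker Slc26a3, a chloride transporter of the crypt top, held 19012, 10327 and 10791 against 2392, 2179.8 and 3800.2 normalized counts. In the COLONIZED-GF comparison 0 of 10 surface genes were called, and the sums overlapped, at 31829 to 41784 in Ern2-/- and 27142 to 57915 in WT libraries. Ascl2 and Rnf43 were called lower in the COLONIZED-GF comparison and Axin2 in the CONV comparison. Goblet genes were called lower in Ern2-/- mice in both. The part of these cells in the results was not tested. In the COLONIZED-GF comparison 2 of 10 goblet genes, Spink4 and Spdef, were called lower in Ern2-/- by DESeq2 and 0 by edgeR. DESeq2 called 1.20% of all genes there.

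Deep crypt secretory cells, which in the colon sit among stem cells, were read from Reg4, Kit and Cd24a. In COLONIZED-GF-WT against GF-WT, Reg4 (2.62 ± 0.52, adjusted p = 1.18e-05) and Cd24a (0.94 ± 0.15, adjusted p = 8.94e-09) rose by DESeq2. Both also rose in CONV-WT against GF-WT (3.03 ± 0.56 and 1.30 ± 0.36, DESeq2 adjusted p = 3.39e-06 and 0.00401). Against GF-Ern2-/-, Cd24a alone was called in COLONIZED-GF-Ern2-/- (1.10 ± 0.20, DESeq2 adjusted p = 2.27e-06). DESeq2 called 17.8%, 11.0% and 7.65% of all genes in these comparisons. By edgeR only Cd24a in COLONIZED-GF-WT was called. Between genotypes 0 of the 3 were called by DESeq2 or edgeR. Reg4 came close in CONV mice, at -1.54 ± 0.43 (DESeq2 adjusted p = 0.0107), and was -1.66 ± 0.65 in COLONIZED-GF mice (adjusted p = 0.108). All its Ern2-/- libraries lay below all WT libraries in both states, as in 11.5% and 13.7% of all genes tested. In CONV and COLONIZED-GF mice Kit was at -1.77 ± 0.70 and -0.64 ± 0.20 (DESeq2 adjusted p = 0.13 and 0.0421). Cd24a was at -0.87 ± 0.37 and 0.02 ± 0.18. Epcam, an epithelial adhesion protein, was high in all libraries, at 19943 to 34787 normalized counts in 17 of them and 8948 in CONV-WT replicate 3. That library also stood apart in Cdh1 (6654 against 22361 and 18511 in its group) and in the summed goblet genes (76961 against 457773 and 414962), so the fits that leave it out also differ in these markers. The 12 immune genes summed to 104 to 389 and the 5 glial and neuronal genes to 4.44 to 25.4, and Col1a1, a fibroblast collagen, reached at most 27.6. The 11 mesenchymal genes summed to 233 to 607 and the 5 endothelial genes to 30.6 to 166. Of the mesenchymal genes, 2 rose (Des and Acta2) and 1 fell (Pdgfrb) in CONV-WT against GF-WT, where Tnfrsf19 rose, and Pdgfrb and the endothelial Pecam1 fell in COLONIZED-GF-Ern2-/- against GF-Ern2-/-, where Ephb2 rose, all by DESeq2. Of all genes, 11.0% (CONV-WT against GF-WT) and 7.65% (COLONIZED-GF-Ern2-/- against GF-Ern2-/-) were called by DESeq2. By edgeR Pdgfrb and Pecam1 were not called, and Des and Acta2 were not tested. Their part in these results was not tested.

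Among the 9 genes other than Olfm4, log2 levels correlated positively in every pair over the 18 libraries. Pearson r was highest between Axin2 and Rnf43, at 0.85, and lowest between Ephb2 and Ascl2, at 0.28. Of 10844 other genes with a mean of at least 50 normalized counts, Tmem216 followed Lgr5 most closely (r = 0.82), then 1300002K09Rik (0.82), Aqp1 (0.81), Greb1 (0.80) and Cdca7 (0.80). The nearest to Ascl2 were Fat2 (0.80), Utp14a (0.78) and 1300002K09Rik (0.77), and the nearest to Axin2 were Greb1l (0.92), Dtx4 (0.91) and Mkx (0.91). The nearest to Ephb2 were Nup210 (0.96), Rasa3 (0.95) and Klhl23 (0.95). These likenesses rest on 18 libraries that share groups and depth, and they were not tested.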

How the data were processed

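RNA-Seq counts of colonic crypt epithelial cells from 18 mice (6 groups of 3) were used. The authors deposited raw counts per gene, which they made with STAR on mm10, and their notes also name DESeq2, while versions, annotation and strand setting are not given in the sources used here. Every count column matched 1 sample, and 0 columns belonged to none. DESeq2 1.42.0 (R 4.3.3) was fitted to the 2 groups of each of 9 comparisons, or to 4 groups for 2 interactions, over all genes, with Wald tests. Benjamini-Hochberg adjusted p under 0.01 was called. Normalized counts were divided by DESeq2 size factors over the 18 libraries. edgeR 4.0.16 (quasi-likelihood) and other fits were alternatives, and the fits were tested on simulated data. Comparisons that share a group are not independent. The p-values weigh each difference against the spread between the mice of these groups, and anything else that differed between the groups enters the difference.

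Genes named were the 10 genes, up to 4 called genes of smallest adjusted p per pathway list, up to 3 markers per other list, genes of most like pattern (Pearson r of log2 normalized count plus 1) and Ern2. The small-intestine genes and the values of other fits that are named were chosen after their values were seen. The 10 genes and all lists were chosen with earlier results of these data known. Genes with an overlapping antisense gene in GENCODE (Lgr5, Tnfrsf19, Axin2, Rnf43, Smoc2) may share reads with it, as Rnf43 and Olfm4 may with a same-strand neighbor.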

Additional observations from a re-analysis of the deposited data

How the results depend on the processing

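No called gene changed direction in the alternatives run, and TMM factors and a low-count filter (10 counts in 3 libraries) kept every count of called genes within 1.5 times. Of 104 alternative fits of the 8 called results, 58 kept the call and 46 did not. Among results with an unadjusted p of 0.05 or more, 91 of 1069 other fits changed sign. Where a count changed, the cause was not tested beyond the smaller number of libraries in some fits. In CONV-Ern2-/- against CONV-WT, 2 genes were called, against 4 at an adjusted p under 0.05, 4 with all 18 libraries in 1 fit (5.14% of all genes against 2.87%), 0 with the Y-linked pattern as a covariate (1.99%) and 0 by edgeR (0 of all genes). In COLONIZED-GF-Ern2-/- against COLONIZED-GF-WT the 2 called became 5 at 0.05, 0 in the fit of all 18 libraries, 0 by edgeR and 1 (Lgr5) with the library total as a covariate (0.171%, 0.00786% and 0.443% of all genes against 1.20%). In CONV-WT against GF-WT the 1 called became 0 with the Y-linked pattern, 0 by edgeR and 2 with the library total (7.08%, 0.175% and 8.18% against 11.0%). In COLONIZED-GF-WT against GF-WT the 2 called became 4 at 0.05, and 1 with the Y-linked pattern, 1 by edgeR and 1 with the library total (Ephb2 kept) and 1 in the fit of all 18 (Tnfrsf19 kept), with 1.81%, 4.94%, 10.4% and 9.65% against 17.8%. In COLONIZED-GF-Ern2-/- against GF-Ern2-/- the 1 called became 2 at 0.05, 0 in the fit of all 18 and 0 by edgeR (8.52% and 0.216% against 7.65%). The 0 called in CONV-WT against COLONIZED-GF-WT became 3 with the library total (Sox9, Smoc2 and Znrf3), where the share of all genes rose from 0.108% to 6.39%, and the 0 in CONV-Ern2-/- against COLONIZED-GF-Ern2-/- became 1 at 0.05 (Axin2). The 0 called in the interaction for CONV against GF became 2 without CONV-WT replicate 3 and GF-Ern2-/- replicate 2, a choice made after seeing the data (4.95% of all genes against 0.177%).

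Leaving out 1 library at a time gave 0 to 6 called genes between CONV genotypes, 0 to 3 between COLONIZED-GF genotypes and 0 to 0 between GF genotypes. It gave 0 to 3 for CONV-WT and 1 to 3 for COLONIZED-GF-WT against GF-WT, 0 to 1 for CONV-Ern2-/- and 0 to 2 for COLONIZED-GF-Ern2-/- against GF-Ern2-/-, 0 to 1 and 0 to 3 for CONV against COLONIZED-GF in WT and Ern2-/- mice, and 0 to 1 and 0 to 0 for the interactions with CONV and COLONIZED-GF. Without CONV-WT replicate 1 or 2 or CONV-Ern2-/- replicate 3, 0 were called between CONV genotypes, and without COLONIZED-GF-WT replicate 1, 0 between COLONIZED-GF genotypes (0.542% of all genes). Without COLONIZED-GF-Ern2-/- replicate 1, 3 were called there (Smoc2 added, 5.26% of all genes against 1.20%), and without GF-WT replicate 1 or 2, 3 in COLONIZED-GF-WT against GF-WT (Smoc2 or Lgr5 added, 20.8% and 14.7% of all genes against 17.8%). Without COLONIZED-GF-Ern2-/- replicate 1, Olfm4 was called between the CONV and COLONIZED-GF Ern2-/- groups (log2 fold change 5.05, DESeq2 adjusted p = 0.00154, with 3.40% of all genes called against 8.59%).

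Replicate numbers gave no clear sign of pairing. Same-numbered libraries deviated from their group means with correlations from -0.44 to 0.63, and in 0 pairs of groups were all above 0.1. GF-Ern2-/- and COLONIZED-GF-Ern2-/- came close to that limit, at 0.49, 0.09 and 0.24. With 3 libraries per group this check cannot settle whether any samples were paired. With the replicate number as a block, 2 genes were called between CONV genotypes (Axin2 and Sox9) and 2 between COLONIZED-GF genotypes (Ascl2 and Smoc2). These fits called 3.54% and 1.64% of all genes. Against GF-WT, 1 was called in CONV-WT (Tnfrsf19, with 9.40% of all genes) and 2 in COLONIZED-GF-WT (Ephb2 and Smoc2, with 17.9%). Against GF-Ern2-/-, 1 was called in COLONIZED-GF-Ern2-/- (Ephb2, with 7.71%), and 0 were called elsewhere. Depth limits Tnfrsf19 and Olfm4, which rested on few counts.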
